A study of Mus musculus with 6 samples.

Results

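The genes described here are 10 components of JAK-STAT signalling and its feedback inhibition: the kinase genes Jak1, Jak2 and Tyk2, the transcription factor genes Stat3, Stat5a and Stat5b, and the inhibitor genes Socs1, Socs2, Socs3 and Cish. They were listed by name, and all 10 were among the 19938 genes tested. Each gene was represented by the probe set that carries only its symbol and has the highest mean over the 6 arrays. The data were log2 gene-level signals from Affymetrix GeneChip Mouse Gene 1.0 ST arrays of sorted mouse bone marrow KSL cells (cKit+, Sca1+, lineage marker-negative), the fraction that holds haematopoietic stem cells and early progenitors. The 3 arrays of the double knockout group (DKO) came from Runx1 fl/fl; Runx3 fl/fl; Mx1-Cre+ mice. The 3 arrays of the wild-type group (WT) came from littermates of the genotype Runx1 fl/fl; Runx3 fl/fl; Mx1-Cre-, so the controls carried the floxed alleles too and lacked the transgene. What the deletion does and what the transgene does therefore cannot be told apart. All mice were on a C57BL/6 background, backcrossed for at least 3 generations, and per the labels' protocols Cre was induced by intraperitoneal pIpC, 600 µg on each of 7 alternating days, begun at 4 weeks. This protocol is worded alike for both groups although the sample descriptions call the cells untreated, and neither the age at collection nor the interval after the last injection is stated. Each WT sample was a pool of 3 mice; pooling of the DKO samples is not stated, and the design text counts 6 mice in all, so what 1 DKO sample stands for is unsettled.

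Cytokine receptors lack kinase activity of their own and carry JAK kinases on their inner tails. Binding of a cytokine brings these kinases together, they phosphorylate the receptor and the STAT proteins that dock on it, and the STAT proteins then enter the nucleus and bind DNA. SOCS proteins and CIS, the product of Cish, are made in response to STAT activity and shut the same receptors down. In blood progenitor cells the erythropoietin receptor signals through Jak2 and the STAT5 proteins, and the interferon receptors signal through Jak1 with Tyk2 or Jak2. pIpC, the agent that induces Mx1-Cre, is a double-stranded RNA analogue that acts by raising type I interferon, which is itself a ligand of this pathway.

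Of the 10 genes, Jak2, Stat5b and Jak1 rose in the DKO samples (adjusted p under 0.05 in limma, a linear model fitted across all genes with Benjamini-Hochberg adjustment over them), Socs3 fell, and 6 did not pass. Among all genes tested 9.71% rose and 7.69% fell by the same rule. DKO values lay above every WT value for 5 of the 10 genes and below every WT value for 2, beside 16.2% and 19.6% of all genes. The median difference, DKO minus WT, was 0.16 on the log2 scale over the 10 genes and -0.04 over all genes. With each array centred on its median, 2254 genes of the whole table rose and 1121 fell, in place of 1936 and 1533. The labels call the samples biological replicates, and the precision of every value is limited by having 3 arrays a group.

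Both extremes of the list are shown here by the 250 bases that precede the annotated transcription start of Socs3, the gene that fell, and of Jak2, the gene with the largest rise. The sequences are from RefSeq (GRCm38.p6), run 5′ to 3′ on the strand of the gene, and capitals mark the only match to the palindromic STAT motif TTCNNNGAA. The build of the array files is not known, so these positions are those of the RefSeq table alone. The Socs3 window is chr11:117969367-117969616 on the minus strand, and the Jak2 window is chr19:29251553-29251802 on the plus strand.
Socs3: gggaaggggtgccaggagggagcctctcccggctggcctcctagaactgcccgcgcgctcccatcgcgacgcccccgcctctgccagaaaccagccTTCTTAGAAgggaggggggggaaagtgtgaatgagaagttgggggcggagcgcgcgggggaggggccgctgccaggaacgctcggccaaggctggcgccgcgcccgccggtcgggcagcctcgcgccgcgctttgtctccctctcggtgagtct
Jak2: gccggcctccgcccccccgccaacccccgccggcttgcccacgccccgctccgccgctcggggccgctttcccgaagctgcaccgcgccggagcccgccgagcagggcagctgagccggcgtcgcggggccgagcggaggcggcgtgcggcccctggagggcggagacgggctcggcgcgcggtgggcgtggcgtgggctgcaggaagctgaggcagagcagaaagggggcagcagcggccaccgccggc
In the Socs3 window the site TTCTTAGAA began 154 bases before the start. Over the 11 windows of the 9 members that the RefSeq table holds, TTCNNNGAA was found in 1, beside 7.02% of all 32851 windows of the same length. TGTGGT, 1 form of the RUNX motif, was searched on both strands and found in 0 of the 11 windows, beside 14.0% of all windows. Other forms of the RUNX motif were not searched. TTCNNNGAA reads the same on both strands. Such matches describe letters only and were not set against binding data.

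Jak2, the kinase of the erythropoietin and common beta chain receptors, had the largest difference of the list (probe set 10462363). Its log2 signals were 8.77, 8.76 and 8.68 in DKO replicates 1 to 3 and 8.23, 7.84 and 8.18 in WT replicates 1 to 3. All 3 DKO arrays lay within 0.1 of each other and above the WT arrays, of which replicate 2 was the lowest. The difference was 0.66 on the log2 scale, 1.57-fold (SE 0.113, 95% interval 0.40 to 0.91, adjusted p = 0.00422). It passed under all 19 alternatives tried, with values of 0.46 to 0.73 and adjusted p of 0.00234 to 0.0264.

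Jak1, the kinase shared by interferon, gp130 and common gamma chain receptors, had signals of 10.06, 10.17 and 10.02 in DKO and 9.77, 9.73 and 9.57 in WT (probe set 10514668). The groups did not overlap. The means were 10.08 ± 0.076 and 9.69 ± 0.11 (SD, n = 3), a rise of 0.39 (SE 0.093, limma adjusted p = 0.0177), or 1.31-fold. This call depended on the processing: the difference was 0.28 with quantile normalization (adjusted p = 0.0779) and 0.26 with cyclic loess (0.0929). It was also lost without DKO replicate 1 (0.0534), DKO replicate 2 (0.0709) or WT replicate 3 (0.0569). Tyk2, the kinase that pairs with Jak1 on the type I interferon receptor, had signals of 6.01, 6.06 and 6.03 in DKO and 6.10, 6.26 and 6.17 in WT (probe set 10591446). Its DKO values all lay below the WT values, but the difference of -0.14 did not pass (95% interval -0.34 to 0.05, adjusted p = 0.287).

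**Figure D1:**
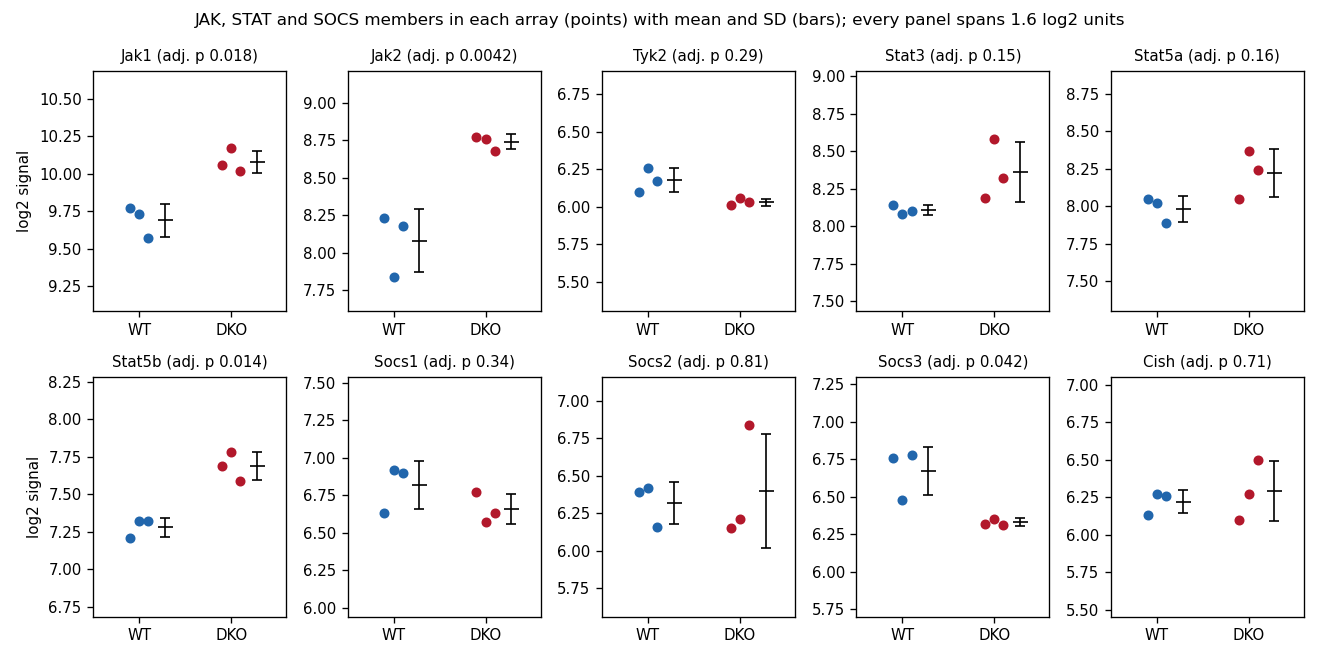
Log2 signal of each of the 10 genes in each array, WT in blue and DKO in red, with the mean and SD as black bars and the limma adjusted p in each title; every panel spans 1.6 log2 units around its own centre. Jak1, Jak2 and Stat5b in DKO lie clear above WT, Socs3 lies below, and the spread in Socs2 comes from DKO replicate 3 at 6.84.

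The 3 STAT genes of the list encode the factors that act downstream of most growth factor receptors of stem and progenitor cells, and they are neighbours on mouse chromosome 11 in the order Stat5b, Stat5a, Stat3. Stat5b (probe set 10391286) had signals of 7.69, 7.78 and 7.59 in DKO and 7.21, 7.32 and 7.32 in WT. Every DKO array exceeded every WT array. The rise was 0.40 or 1.32-fold (SE 0.0895, adjusted p = 0.0139), and its call was lost without DKO replicate 1 (0.0513) or DKO replicate 2 (0.0594). It was also lost with the trend over gene span and signal removed, where the difference was 0.24 (0.11).

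Stat5a, the close paralog of Stat5b, had signals of 8.05, 8.37 and 8.24 in DKO and 8.05, 8.02 and 7.89 in WT (probe set 10381172). DKO replicate 1 equalled WT replicate 1 to the decimals given and exceeded it by less than 0.01, so the groups barely separated. Its difference of 0.24 did not pass (95% interval 0.00 to 0.47, adjusted p = 0.157). Stat3, the factor of gp130 and granulocyte colony-stimulating factor receptors, had signals of 8.19, 8.58 and 8.32 in DKO and 8.14, 8.08 and 8.10 in WT (probe set 10391301). The WT arrays were tight (SD 0.033) and the DKO arrays spread (SD 0.2), with replicate 2 the highest. The difference of 0.26 did not pass (95% interval 0.01 to 0.50, adjusted p = 0.146) and was 0.15 without DKO replicate 2. The genes on either side of this cluster, Ghdc and Cavin1, differed by -0.10 and -0.02 (adjusted p = 0.604 and 0.875), and Atp6v0a1 beyond Cavin1 rose by 0.81 (adjusted p = 0.00078).

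Socs3, which encodes the inhibitor of gp130 and granulocyte colony-stimulating factor receptor signalling, had signals of 6.32, 6.35 and 6.31 in DKO and 6.76, 6.48 and 6.78 in WT (probe set 10393449). The DKO arrays were nearly equal and all lay below WT, of which replicate 2 was the lowest. The fall was 1.27-fold (-0.35, SE 0.101, adjusted p = 0.0417), close to the threshold, and 12 of 19 alternatives lost the call, among them quantile normalization (0.0564), median centring (0.0604) and cyclic loess (0.0664). It was also lost without any 1 of DKO replicates 1, 2 or 3 (0.115, 0.0942 and 0.124) and without WT replicate 1 (0.101) or 3 (0.122). Its values kept to -0.44 to -0.25. A dimmer Socs3 probe set, 10383010, differed by -0.16 (SE 0.1, adjusted p = 0.314 over all probe sets with 1 symbol).

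Socs1, the inhibitor of interferon signalling that binds the JAK kinases, had signals of 6.77, 6.57 and 6.63 in DKO and 6.63, 6.92 and 6.90 in WT (probe set 10437668). The groups overlapped, and the difference was -0.16 (95% interval -0.40 to 0.08, adjusted p = 0.341); it was -0.25 (0.126) without WT replicate 1 and -0.08 (0.672) with the span and signal trend removed. Cish, a target of STAT5 proteins whose product competes for their docking sites, had signals of 6.10, 6.27 and 6.50 in DKO and 6.13, 6.27 and 6.26 in WT (probe set 10588577). Its difference was 0.07 (95% interval -0.18 to 0.32, adjusted p = 0.71), and it was -0.03 without DKO replicate 3.

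Socs2, another STAT5 target and a brake on growth hormone receptor signalling, had signals of 6.15, 6.21 and 6.84 in DKO and 6.39, 6.42 and 6.16 in WT (probe set 10372069). DKO replicate 3 stood above the other 5 arrays, and the difference of 0.07 (95% interval -0.31 to 0.46, adjusted p = 0.809) was -0.14 without it and -0.01 without WT replicate 3. The second Socs2 probe set, 10394674, had signals of 5.85, 5.77 and 6.92 in DKO and 5.31, 6.16 and 5.15 in WT, a difference of 0.64 (SE 0.334, adjusted p = 0.233 over all probe sets). DKO replicate 3 was the highest array in both. The interval of Socs1 includes a fall as large as that of Socs3, and the interval of Socs2 includes a rise as large as that of Jak1.

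Related genes of the list were compared within each array, over 5 pairs chosen by relatedness, with an exact two-sided permutation test that cannot give a p below 0.1 with 3 samples against 3. The log2 signal of Jak1 less that of Tyk2 was 4.04, 4.11 and 4.00 in DKO and 3.66, 3.47 and 3.40 in WT. This was the only one of the 5 pairs without overlap, with a change of 0.54 and an exact p = 0.1, the smallest possible (0.5 after Benjamini-Hochberg adjustment over the pairs). With the trend over gene span and signal removed, described further on, it was 0.20 with overlap (exact p = 0.2). The change of Jak1 less Jak2 was -0.26 (exact p = 0.2), of Stat5a less Stat5b -0.16 (exact p = 0.3), of Socs1 less Socs3 0.18 (exact p = 0.4) and of Socs2 less Cish 0.00 (exact p = 1), and their adjusted p-values were 0.5 or 1. The Jak1 less Jak2 change was -0.38 without overlap (exact p = 0.1) when the same trend was removed, -0.37 (exact p = 0.1) without WT replicate 3 and -0.12 (exact p = 0.3) without WT replicate 2. As 3 samples against 3 cannot reach 0.05, these tests do not settle whether members of a pair changed unequally. The sequences of Stat5a and Stat5b are similar, and sharing of signal between their probe sets was not tested.

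**Figure D2:**
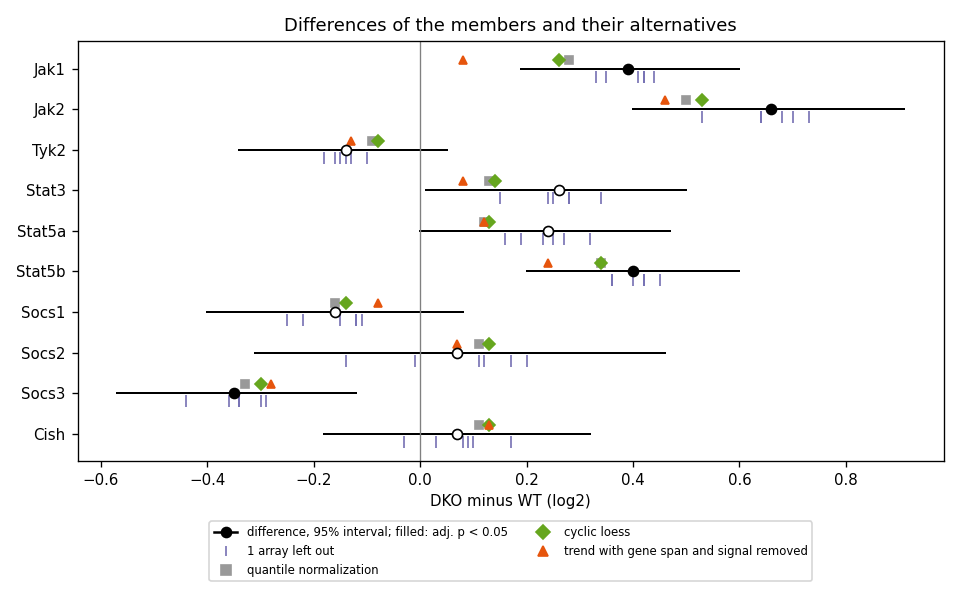
DKO minus WT on the log2 scale for each gene: black points with 95% intervals, filled where the limma adjusted p is under 0.05, purple ticks with 1 array left out, and coloured symbols for 3 alternatives. Jak2 stays at 0.46 or above in each alternative drawn, whereas Jak1 moves from 0.39 to 0.08 with the trend over gene span and signal removed.

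Differences over all genes varied with the span of the gene and its signal. Jak1, Jak2 and Stat5b are long genes, and Socs1, Socs3 and Cish are short. They also differ in signal: by decile, with 10 the brightest, Jak1 and Jak2 were in 10, Stat5b in 8, Socs1 and Socs3 in 7 and Cish in 6. By decile of gene span, the median difference went from -0.07 in the shortest genes to 0.02 in the ninth decile, and the share that rose from 2.92% to 17.8%. In the tenth decile, which holds Jak1, the median was -0.02 and 14.5% rose. The smooth trend at the span and signal of each gene was 0.32 for Jak1 (113 kb in the RefSeq table), 0.20 for Jak2 (61.3 kb), 0.18 for Stat3 (52.8 kb), 0.16 for Stat5b (78.3 kb) and 0.12 for Stat5a (25.8 kb). It was -0.02 for Tyk2, 0.01 for Socs2, -0.06 for Cish, -0.07 for Socs3 (4.26 kb) and -0.08 for Socs1 (1.73 kb). With this trend removed Jak2 still rose by 0.46 (adjusted p = 0.026), while Stat5b was at 0.24 (0.11), Jak1 at 0.08 (0.653) and Socs3 at -0.28 (0.1). The parts of span and of signal in this trend were not separated, and the part of RNA quality or amplification in it was not tested.

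**Figure D3:**
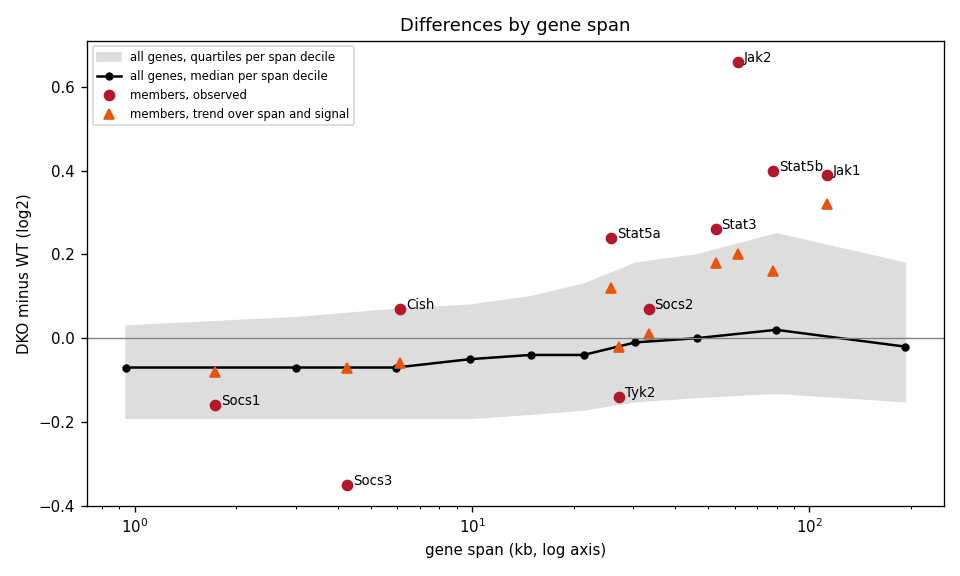
DKO minus WT (log2) against gene span in kb on a log axis: the black line and grey band give the median and quartiles of all genes by decile of span, red points the 10 genes as observed, and orange triangles the trend at each gene's span and signal. Jak1 lies near its triangle (0.39 against 0.32), and Jak2 (0.66 against 0.20) and Socs3 (-0.35 against -0.07) lie farther from theirs.

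The gene most like Jak2 over the 6 arrays was Naip2, with Pearson's r of 0.9995, followed by Zfp141 (0.9979) and Fyb (0.9955), which differed by 1.00, 0.63 and 1.27. With each group's mean removed, r was 0.996, 0.984 and 0.969, which is no separate check, as the same 6 arrays served for the choice. In all 309 genes had an r above 0.95 with Jak2, and since the 3 were picked as the highest over 6 arrays, the values are a description.

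Of 7 other tested genes of the JAK, STAT and SOCS families, Stat4 rose and 6 did not pass. Of all genes 9.71% rose and 7.69% fell. Stat4, the factor of interleukin-12 and type I interferon receptors, had signals of 8.40, 8.39 and 8.35 in DKO and 7.61, 7.54 and 7.55 in WT, a rise of 0.82 or 1.76-fold (SE 0.0808, adjusted p = 0.000266). It was still called after removal of the span and signal trend, at 0.60 (0.00147), and with any 1 array left out, at 0.80 to 0.84. Socs6 and Socs4 differed by 0.65 and 0.45 and missed the threshold (adjusted p = 0.0558 and 0.0581). Of 19 alternatives Socs6 passed in 6 and Socs4 in 7, among them median centring (0.0444 and 0.0461) and the removal of the dimmest 25% of genes (0.0471 and 0.0481). Socs6 was at 0.41 without DKO replicate 3, and averaging its probe sets gave -0.01; Socs4 was at 0.30 without WT replicate 3. Stat2 differed by 0.27 (adjusted p = 0.137), and passed at 0.39 without WT replicate 1 (0.0236). Socs7, Socs5 and Stat6 differed by 0.15, 0.14 and 0.04, with adjusted p of 0.311, 0.312 and 0.791. The list median was 0.27.

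Among 24 other regulators of JAK and STAT proteins 8 rose and 1 fell, beside 9.71% and 7.69% of all genes, with a median of 0.11. Ptprc, the CD45 phosphatase that can remove phosphate from JAK kinases, rose by 0.76 (10.22 ± 0.061 against 9.46 ± 0.048, adjusted p = 0.000459). Pias1, an inhibitor of DNA binding by STAT proteins, rose by 0.64 (adjusted p = 0.00223), and Usp18, a protease that also blocks the type I interferon receptor, by 0.80 (7.20 ± 0.035 against 6.40 ± 0.28, adjusted p = 0.00328). Gab2, a docking protein of cytokine receptors, rose by 0.50 (adjusted p = 0.0113). After removal of the span and signal trend 3 rose, 2 fell and the median was -0.02; Ptprc was then at 0.45 (0.00731) and Gab2 at 0.29 (0.109). The median was 0.04 with quantile normalization and 0.02 with cyclic loess, and 4 genes rose without DKO replicate 3.

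Of 31 receptor chains that use JAK kinases 8 rose and 2 fell, beside 9.71% and 7.69% of all genes. The median difference of the chains was 0.14. Csf2rb2 and Csf2rb, near-identical beta chains that signal through Jak2 and whose signals cannot be fully separated, had the largest rises. Csf2rb2 went from 5.14, 5.02 and 5.60 in WT to 7.41, 7.22 and 7.27 in DKO (4.13-fold, adjusted p = 4.87e-05), and Csf2rb rose 2.83-fold. Il10rb, a chain shared by interleukin-10 and interferon-lambda receptors, rose by 0.88 (adjusted p = 0.00168), and Il15ra, which presents interleukin-15, by 0.53 (7.71 ± 0.011 against 7.18 ± 0.095, adjusted p = 0.00325). The 2 chains that fell were Il10ra, at -0.45 (adjusted p = 0.0114), and Csf2ra, at -0.39 (adjusted p = 0.0139). The count that rose kept to 7 to 9 over the alternatives.

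Ligands of these receptors rose in 3 of 20 cases, and none fell, beside 9.71% and 7.69% of all genes. The median of the ligands was -0.12, and 7 of them were dimmer than the lower quartile on all 6 arrays. Il15 had signals of 8.58, 9.07 and 8.80 in DKO and 6.70, 6.98 and 6.89 in WT, a rise of 1.96 or 3.9-fold (SE 0.132, adjusted p = 4.02e-05). Il4 rose by 0.75 (adjusted p = 0.00479). Ifnb1, which encodes interferon beta, rose by 0.36 from a WT signal of 4.42, below the lower quartile of each WT array (adjusted p = 0.0255), and its call was lost without DKO replicate 1, 2 or 3 or WT replicate 1 or 2, at 0.0544 to 0.096.

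Textbook target genes of the STAT proteins are given here by the factor they are known for, to be read against the 9.71% of all genes that rose and the 7.69% that fell. Of 12 STAT5 targets outside the 10 genes, 0 rose and 2 fell, with a median of -0.06, which was 0.02 without DKO replicate 3 or WT replicate 3. Without WT replicate 1, 1 of them rose. Bcl2, an inhibitor of apoptosis, fell 4.34-fold, with signals of 7.19, 6.45 and 7.06 in DKO and 9.02, 9.01 and 9.04 in WT (adjusted p = 7.73e-05), and the cyclin gene Ccnd1 fell by 0.67 (adjusted p = 0.00447). Pim1, often read as a marker of STAT5 activity, differed by 0.07 (SE 0.0813, adjusted p = 0.612). Of 10 STAT3 targets, with a median of -0.13, Hif1a rose by 0.53 (adjusted p = 0.0309) and Vegfa fell by 0.38 (adjusted p = 0.0193). Over the 19 alternatives Hif1a lost its call in 7 and Vegfa in 4. With quantile normalization, and with the span and signal trend removed, 0 of the 10 STAT3 targets rose. Both calls also depended on single arrays. Hif1a lost its call without DKO replicate 2 or 3 or WT replicate 1 or 2 (0.0555 to 0.108), and Vegfa without DKO replicate 1 or 3 or WT replicate 3 (0.0618 to 0.0813). Of 11 interferon-STAT targets Ifit1 and Oas1a rose by 0.36 and 0.54 (adjusted p = 0.0171 and 0.0191), and 9 did not pass. The list median was 0.15, with 7 of 11 differences above 0 and 4 below; among those that did not pass, Rsad2 was at 0.24 (adjusted p = 0.147) and Mx1 at -0.16 (0.387). Ifit1 lost its call without DKO replicate 2 or 3 or WT replicate 3 (0.0545 to 0.0668), and Oas1a without any 1 of the DKO replicates (0.0526 to 0.0762).

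**Figure D4:**
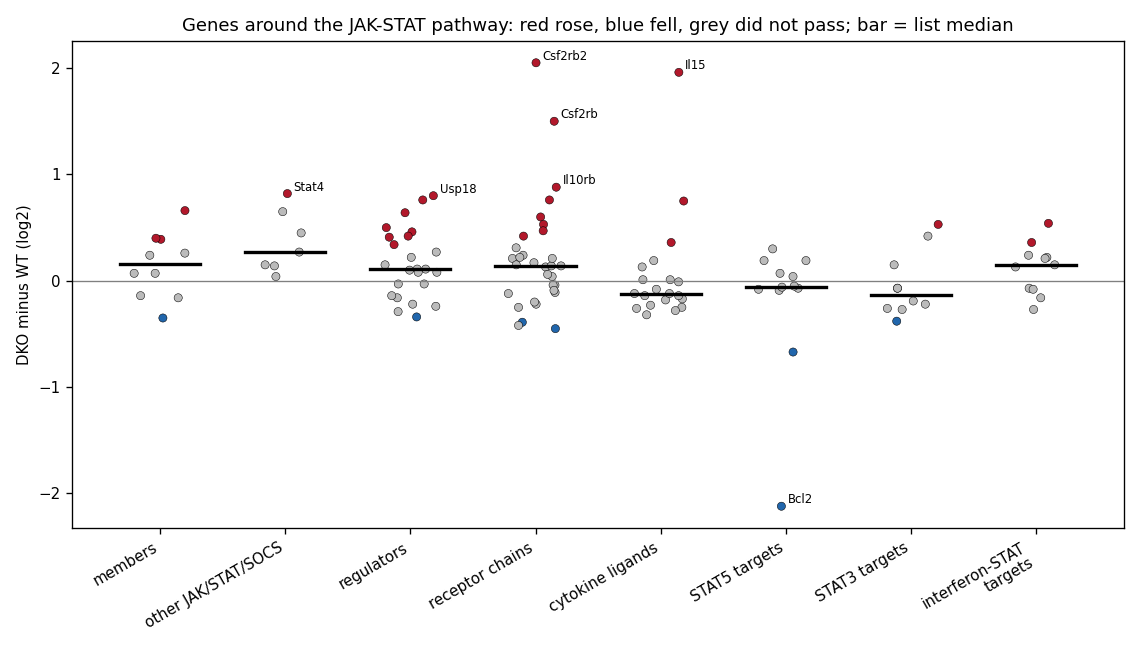
DKO minus WT (log2) of each tested gene, by list around the pathway: red points rose, blue fell and grey did not pass, and black bars are list medians. Csf2rb2 (2.05), Il15 (1.96) and Bcl2 (-2.12) lie far outside the range of the 10 genes, -0.35 to 0.66.

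Runx1, the first targeted gene, had signals of 9.22, 9.37 and 9.28 in DKO and 8.49, 8.53 and 8.38 in WT, so Runx1 rose by 0.82 (adjusted p = 0.000427) in the samples labelled as its knockout, and it did so under all 19 alternatives at 0.51 to 0.87. Runx3 had signals of 7.40, 7.40 and 7.34 in DKO and 7.53, 7.59 and 7.47 in WT, a difference of -0.15 (adjusted p = 0.253) that passed at -0.29 (0.0448) with the span and signal trend removed. A gene-level signal can include probes outside deleted exons, and the probe positions were not examined here. These values therefore do not check the deletion, and every direction is that of the labels. Of 7 KSL markers tested, Kit, Meis1 and Slamf1 rose by 0.73, 0.88 and 1.95 and Flt3 fell by 1.32. Cd34, Hlf and Procr did not pass, at 0.02, 0.34 and -0.36 (adjusted p = 0.902, 0.171 and 0.0879). Ly6a was not analysed here. The mean log2 signal over 6 megakaryocyte markers, of which 4 rose, was 7.47 to 8.18 in DKO and 6.95 to 7.12 in WT. Differences of the remaining 2 lay below 0 with overlapping groups: -0.51 for Pf4 (adjusted p = 0.256), -0.44 for Ppbp (adjusted p = 0.427). Over 8 mast cell and basophil markers the mean was 6.35 to 6.38 and 5.72 to 6.00, but the median difference was 0.02. Of these 8 markers 3 rose and 3 fell. Cpa3, a mast cell protease gene, rose 10.7-fold, and Mcpt8 fell 2.5-fold. Over 4 erythroid markers the mean was 6.18 to 6.58 and 6.80 to 7.13. Car1 and Klf1 fell, at -2.02 and -0.54, the other 2 did not pass, and 1 of the 4 differences was above 0. Over 8 neutrophil and monocyte markers the mean was 6.15 to 6.29 and 6.64 to 7.04. Elane and Ccr2 fell, at -2.30 and -0.75, the other 6 did not pass, and 1 of the 8 differences was above 0. B cell markers (4) were at 5.16 to 5.27 and 5.12 to 5.36, and T and NK cell markers (7) at 4.39 to 4.53 and 4.40 to 4.63, with 0 calls in either. Cma1, Ms4a1, Cd3d, Cd3g, Klrb1c, Ncr1 and Ly6g were under the lower quartile on all 6 arrays. Fewer cells of a type and less RNA per cell cannot be told apart in such bulk samples, and the part of these markers in the differences of the 10 genes was not tested.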

How the data were processed

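The authors deposited log2 gene-level signals of 35556 probe sets on 6 arrays, 3 per group. Per the labels' titles they are RMA signals at default settings, while the design text names MAS 5.0; values of 1.25 to 13.7 have the scale of RMA. Affymetrix Expression Console 1.0 is named, per the submitters' processing notes. The genome build was not given in the sources used here. RMA equalises arrays by quantiles, which removes a shift shared by all genes. Of the probe sets, 21789 had 1 symbol in the platform annotation, 1621 several and 12146 none; 1 probe set per gene left 19938 genes, and no filter on dim signals was applied.

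DKO was compared with WT by limma 3.58.1 in R 4.3.3 (lmFit, eBayes, two-sided, threshold 0.05), which was tested on simulated data first. Samples were grouped by their labels. Of 184 list genes 167 were tested, and the other 17 are not analysed here. The named genes come from a rule: the 10 members with all values, all tested genes of the other JAK, STAT and SOCS list, up to 4 called genes with the smallest p of each further list, or the 2 with the smallest p where fewer than 2 were called, Runx1, Runx3 and the 3 genes most like the member with the smallest p. Ghdc, Cavin1, Atp6v0a1, Il10ra, Csf2ra, Pim1, Rsad2, Mx1, Cd34, Hlf, Procr, Pf4, Ppbp, Cma1, Cd3g, Ncr1 and Ly6g are named beside this rule. They were chosen with their values in view. For the marker lists of other cell types, list means stand in place of some genes that the rule allows. Members and lists were chosen with earlier results of these data known. Alternatives were 3 normalizations, 2 filters, 2 choices of probe set, a replicate block, array weights, limma's trend with robust fitting, removal of the trend over gene span and signal, 2 thresholds and each array left out in turn.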

Additional observations from a re-analysis of the deposited data

How the results depend on the processing

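Over the 19 alternatives Jak2 rose in each, Stat5b lost its call in 4, Jak1 in 7 and Socs3 in 12, and the other 6 genes passed in none. The count of the 10 genes that rose was 1 with the trend over gene span and signal removed and 1 at a threshold of 0.01, and 1 to 3 with 1 array left out. The count that fell was 0 with quantile normalization, median centring, cyclic loess, the mean of a gene's probe sets, the replicate block, the trend removed and the threshold of 0.01, and 0 to 1 with 1 array left out. Over all genes 1058 rose and 588 fell at the threshold of 0.01, and with 1 array left out 1250 to 1868 rose and 843 to 1388 fell, with rises fewest without DKO replicate 3 and falls at 843, 876 and 854 without DKO replicates 1, 2 and 3. Signs changed for Socs2 (-0.14 to 0.20 with 1 array left out), Cish (-0.03 to 0.17), Stat6 (-0.02 to 0.09) and Socs6 (-0.01 with the mean of its probe sets); the causes were not tested.

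Replicate numbers do not pair the samples as far as the data show: deviations of same-numbered samples correlated at -0.00874, -0.0954 and -0.0419 over all genes. With the replicate block 1772 genes rose and 1272 fell, Socs3 had an adjusted p of 0.0671, and Socs6 and Socs4 had 0.00874 and 0.0287. Depth is not defined for arrays, and the precision is limited by their number; with an array left out, the spread is pooled over the remaining 2 and 3 samples of the groups. None of the 10 genes lay below the lower quartile of an array.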
